A study of Mus musculus with 38 samples.

Results

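Malat1, Neat1, Meg3, Miat, Rian and Snhg11 are long noncoding RNAs best known from the cell nucleus, and they are 6 of the 23420 genes counted in these libraries. They were chosen by measured values of the same libraries, namely their levels in dVenus+ and dVenus- cells and the reads that fell outside genes. Their own differences between dVenus+ and dVenus- cells are therefore a description here, without a test. Every mouse was an adult male Arc::dVenus reporter mouse on a C57BL/6J background, in which the Arc promoter drives a destabilised Venus fluorescent protein, so that dVenus+ cells are those with recent activity of that promoter. Fear conditioned mice (FC) received tones paired with foot shocks in a chamber, no shock mice (NS) went through the same session without shocks, and home cage mice (HC) stayed in their cages. The day after training the contents of granule neurons of the dentate gyrus were drawn into patch pipettes together with the nucleus. Each library pools 10 cells of 1 mouse, and each mouse gave 1 dVenus+ and 1 dVenus- library. There were 12 FC, 4 NS and 3 HC mice, or 38 libraries.

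Most long noncoding RNAs of this kind stay where they are transcribed and work as RNA, without a protein product. Malat1 gathers in nuclear speckles, the stores of splicing factors, and Neat1 is the scaffold of paraspeckles. Miat lies in nuclear dots of its own in neurons, Meg3 and Rian come from the maternal copy of the imprinted Dlk1-Dio3 region, and Snhg11 hosts a small nucleolar RNA in its introns.

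Between 1352288 and 18394761 reads per library were counted on genes, with a median of 8013005, and levels below are given as CPM, the usual scaling of counts by this total. A count of 0 allows up to 3 counts, which is between 0.163 and 2.22 CPM depending on the library, and covers counting error only. The library identifiers begin with 4 different codes, called batches here. The labels do not say what a code stands for, but the study ran its FC mice as 3 separate experiments, whose sizes match the 3 codes of FC mice. FC mice fill 3 of them, with 2, 4 and 6 mice, and the 7 NS and HC mice fill the other, so that FC levels and batch cannot be told apart from each other when FC is set against NS or HC. Scaling factors of the trimmed mean of M-values (TMM) ran from 0.295 to 1.92, so the direction of a difference within a mouse can depend on the scale.

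Arc served as a check of the labels. Its level ran from 237.7 to 2169 CPM in the 12 FC dVenus+ libraries, with a median of 861, and from 0 to 276 CPM in the 12 FC dVenus- libraries, with a median of 0.858. Only FC mouse 14, at 276 CPM in its dVenus- and 445 CPM in its dVenus+ library, brought these ranges to overlap. The dVenus- libraries of FC mice 6 and 7 held Arc as well, at 143 and 59.5 CPM. In NS mice Arc was between 73.5 and 1024 CPM in dVenus+ and at most 2.8 CPM in dVenus- libraries. In HC mice it was between 87.3 and 614 CPM in dVenus+ and at most 7.44 CPM in dVenus- libraries. These groups follow the sample titles, whereas the descriptions of 10 of the 14 NS and HC libraries name another mouse, another cell type or both. Arc goes with the titles for the cell type in all 14. Which NS and HC libraries come from the same mouse rests on the titles alone, and so does each within-mouse difference of these mice.

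Of the 6 genes, 5 have a promoter entry in the RefSeq table for GRCm38.p6 (250 bases before to 50 after the start of the gene), Meg3 with more than 1 entry, and Neat1 is not in it. Each was searched on both strands for the cyclic AMP response element TGACGTCA and for its shorter core TGACG, which the full element holds on either strand. CREB, a factor that the study manipulated in other mice, binds these letters. The full element is in the Meg3 promoter at chr12:109540746-109541045 (+ strand), with the first base of the match 57 bases before the start, and in 1.79% of all 32851 promoters. The core is in the Malat1 promoter at chr19:5802623-5802922 (- strand) 3 times, with first bases 154, 45 and 3 bases before the start, and in 20.8% of all promoters. Miat, Rian, Snhg11 and the other Meg3 promoter hold neither in this window. Both promoters are printed, with the matches in capitals, because they hold these letters. Whether these letters bear on the levels of the members was not tested.

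Malat1 promoter: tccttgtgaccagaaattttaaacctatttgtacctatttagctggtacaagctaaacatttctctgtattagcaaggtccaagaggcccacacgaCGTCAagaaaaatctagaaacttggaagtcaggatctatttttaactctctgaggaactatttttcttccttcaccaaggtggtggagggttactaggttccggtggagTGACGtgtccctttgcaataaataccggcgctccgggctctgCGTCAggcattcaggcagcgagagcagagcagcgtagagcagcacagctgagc

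Meg3 promoter: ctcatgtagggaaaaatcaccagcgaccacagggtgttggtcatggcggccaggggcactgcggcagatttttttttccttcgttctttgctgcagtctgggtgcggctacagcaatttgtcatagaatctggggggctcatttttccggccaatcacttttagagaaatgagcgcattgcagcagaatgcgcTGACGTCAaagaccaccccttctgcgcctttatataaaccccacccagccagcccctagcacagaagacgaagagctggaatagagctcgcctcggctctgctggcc

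Malat1 is a single exon of 6983 bases at chr19:5795690-5802672 (GRCm38, - strand), and its mature end carries no long tail of added adenines but a stretch of them in its own sequence. The library method primes on runs of A, so the stretch is shown with its longest run of A, 12 bases, in capitals, although Meg3 and Rian hold longer runs of 16 and 15 bases (chr19:5795968-5796079, - strand, bases 6594 to 6705 of the transcript Malat1-201 in GENCODE vM21).

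Malat1 end: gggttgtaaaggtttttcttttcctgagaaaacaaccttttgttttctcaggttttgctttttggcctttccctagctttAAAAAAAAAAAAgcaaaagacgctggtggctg

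Malat1 was the most abundant of the 6 genes and the third of all 23420 by mean level, with between 0.233% and 7.67% of the reads on genes. In FC mice its level ran from 8802.5 to 76725 CPM in dVenus+ libraries, with a median of 32975. In their dVenus- libraries it ran from 5103 to 36149 CPM, with a median of 16442. By CPM 11 of 12 mice had more of it in dVenus+ cells, and mouse 14 had less, at 8802.5 against 27464 CPM. On the TMM scale 11 of 12 had more as well, but there mouse 14 was higher, by 0.46 on the log2 scale, and mouse 12 was the one below, at -0.03. By CPM the groups overlapped, with 5 dVenus+ libraries above every dVenus- library. The log2 fold change of the fit was 1.53 ± 0.31 (SE, n = 12 mice), against a median of -0.21 over the 9709 genes tested. In the batch of 6 FC mice it was 0.97 ± 0.28, and in the batch of 4 it was 2.81 ± 0.31.

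In NS mice 18 to 21 Malat1 was at 45655, 28577, 25338 and 7108 CPM in dVenus+ libraries. It was at 5001, 7553, 15510 and 10438 CPM in their dVenus- libraries. The first 3 of these mice had more in dVenus+ and mouse 21 had less, although mouse 21 too was higher on the TMM scale. The fit gave 1.81 ± 0.35 (SE, n = 4 mice). In HC mice 15 to 17 it was at 41264, 15031 and 18384 CPM in dVenus+ against 6538, 2332 and 17792 CPM in dVenus- libraries. All 3 mice were higher in dVenus+, mouse 17 by little, and the fit gave 2.66 ± 0.57 (SE, n = 3 mice).

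Neat1 lies 22.0 kb from Malat1 on the same strand and is the longer of the pair, with 20771 bases of exon. It was at 0 counts in 22 of 38 libraries and at 10 counts or more in 13, and it did not pass the count filter in FC, NS or HC mice. FC dVenus+ libraries ran from 0 to 18.6 CPM with a median of 1.44, and FC dVenus- libraries from 0 to 96 CPM with a median of 0.0469. The 3 highest libraries of these mice were dVenus- (mice 1, 9 and 14), and 5 mice were higher in dVenus+, 5 lower and 2 at 0 in both. Mouse 4 is among the 5 lower ones with 0 against 1 count, which the floor of 3 counts does not separate. In NS mice 18 to 21 Neat1 was at 61.9, 0.439, 0 and 0 CPM in dVenus+ libraries and at 0 in all 4 dVenus- libraries. In HC mice 15 to 17 it was at 3.18, 0 and 0 CPM in dVenus+ libraries and at 0 in all 3 dVenus- libraries. Most libraries therefore held no or few Neat1 reads, and no fold change of Neat1 within a history is given.

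Miat was the 676th most abundant gene, with 9293 bases of exon at chr5:112213228-112229395 (- strand). Its transcript is known for repeats of ACTAAC, the letters of the intron branch point that the splicing factor SF1 reads. On the given strand of Miat-205, of 9163 bases, ACTAAC occurs 11 times, or 1.2 per kb, which ranks as number 3 among 7040 transcripts of at least 5000 bases (median 0.0912 per kb, 52% with at least 1 copy). The other 5 genes hold between 0 and 4 copies. The 2 stretches with 4 copies at most 100 bases apart lie at chr5:112217309-112217459 and chr5:112216752-112216877 (- strand, exon 7) and are shown because the repeats set Miat apart from the other 5 in sequence, with ACTAAC in capitals.

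Miat first stretch: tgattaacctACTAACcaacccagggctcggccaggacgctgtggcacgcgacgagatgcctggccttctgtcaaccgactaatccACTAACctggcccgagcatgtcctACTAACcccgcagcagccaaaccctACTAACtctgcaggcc

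Miat second stretch: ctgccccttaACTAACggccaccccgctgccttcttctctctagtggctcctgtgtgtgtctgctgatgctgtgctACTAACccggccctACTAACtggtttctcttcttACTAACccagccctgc

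Miat had the negative log2 fold change among the 5 genes tested in FC mice, with Rian negative too in the batch of 6. Its level was between 2.28 and 273 CPM in FC dVenus+ libraries, with a median of 46.4. In FC dVenus- libraries it was between 35 and 679 CPM, with a median of 372. It was lower in dVenus+ in 12 of 12 mice by CPM and in 11 of 12 on the TMM scale, and 9 dVenus- libraries lay above every dVenus+ library. The log2 fold change was -2.41 ± 0.66 (SE, n = 12 mice), with -2.21 ± 0.64 in the batch of 6 mice and -1.59 ± 1.11 in the batch of 4.

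In NS mice 18 to 21 Miat was at 41.1, 66.9, 167 and 21.6 CPM in dVenus+ libraries. It was at 169, 65.4, 21.2 and 79.3 CPM in their dVenus- libraries. Mice 19 and 20 were higher in dVenus+ and mice 18 and 21 lower, so these ranges overlapped fully, and the fit gave 0.17 ± 1.43 (SE, n = 4 mice). In HC mice 15 to 17 it was at 71.3, 5.26 and 29.2 CPM in dVenus+ against 204, 0 and 3.94 CPM in dVenus- libraries. Only mouse 15 was lower in dVenus+, and the fit gave 3.38 ± 3.23 (SE, n = 3 mice). By the newer quasi-likelihood method of edgeR it was 2.14 ± 1.91 (SE).

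Meg3, at chr12:109541001-109571726 (+ strand), gives a transcript with tumour suppressor activity in other tissues. It was the 14th most abundant gene. FC dVenus+ libraries ran from 639 to 5958 CPM with a median of 1931, and FC dVenus- libraries from 115 to 5149 CPM with a median of 1318. It was higher in dVenus+ in 6 of 12 mice by CPM and in 9 of 12 on the TMM scale, and the ranges overlapped almost fully. The log2 fold change was 1.16 ± 0.45 (SE, n = 12 mice), with 0.27 ± 0.41 in the batch of 6 mice and 3.03 ± 0.54 in the batch of 4. All 4 mice of the smaller batch were higher in dVenus+ by CPM, as were mouse 3 and mouse 9.

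In NS mice 18 to 21 Meg3 was at 2421, 2575, 1172 and 360 CPM in dVenus+ libraries. It was at 590, 411, 228 and 567 CPM in their dVenus- libraries. Mouse 21 alone was lower in dVenus+, and was higher on the TMM scale, with a fit of 2.09 ± 0.57 (SE, n = 4 mice). In HC mice 15 to 17 it was at 1636, 472 and 1048 CPM in dVenus+ against 747, 147 and 2268 CPM in dVenus- libraries. Mouse 17 was lower in dVenus+ and the others higher, and the fit gave 1.42 ± 0.83 (SE, n = 3 mice).

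Rian starts 32.2 kb beyond Meg3 on the same strand and carries small nucleolar RNAs and microRNAs within its transcript. It was the 3708th most abundant gene. FC dVenus+ libraries ran from 0.499 to 130 CPM with a median of 62.1, and FC dVenus- libraries from 0.787 to 125 CPM with a median of 43.1. It was higher in dVenus+ in 8 of 12 mice by CPM and in 7 on the TMM scale, and the ranges overlapped fully. The log2 fold change was 1.18 ± 1.07 (SE, n = 12 mice), but -0.71 ± 0.9 in the batch of 6 mice and 5.58 ± 1.99 in the batch of 4, so its sign differed between batches. NS libraries held between 0 and 57.1 CPM and HC libraries between 1.42 and 129.5 CPM, with 2 of 4 NS mice and 1 of 3 HC mice higher in dVenus+. The fits gave 0.26 ± 3.89 in NS (SE, n = 4 mice) and 0.6 ± 2.71 in HC mice (SE, n = 3 mice).

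Snhg11, at chr2:158375638-158386145 (+ strand), is listed by GENCODE vM21 as protein coding and by its name as a host gene of small nucleolar RNA. It was the 29th most abundant gene. FC dVenus+ libraries ran from 198 to 5104 CPM with a median of 986, and FC dVenus- libraries from 42.4 to 3386 CPM with a median of 450.1. It was higher in dVenus+ in 8 of 12 mice on both scales, 2 dVenus+ libraries lay above every dVenus- library, and the rest overlapped. The log2 fold change was 1.59 ± 0.49 (SE, n = 12 mice), with 0.92 ± 0.51 in the batch of 6 mice and 3.38 ± 0.49 in the batch of 4.

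In NS mice 18 to 21 Snhg11 was at 2268, 804, 815 and 137 CPM in dVenus+ libraries. It was at 15.8, 91.3, 4.92 and 106 CPM in their dVenus- libraries. All 4 dVenus+ libraries lay above all 4 dVenus- libraries, and the fit gave 4.98 ± 1.02 (SE, n = 4 mice). In HC mice 15 to 17 it was at 433, 191 and 149 CPM in dVenus+ against 358, 2.09 and 763 CPM in dVenus- libraries. Mouse 17 was lower in dVenus+ and the fit gave 1.77 ± 1.65 (SE, n = 3 mice). With pools of 10 cells, fewer cells with an RNA and less of it per cell cannot be told apart, for any of the 6 genes.

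**Figure D1:**
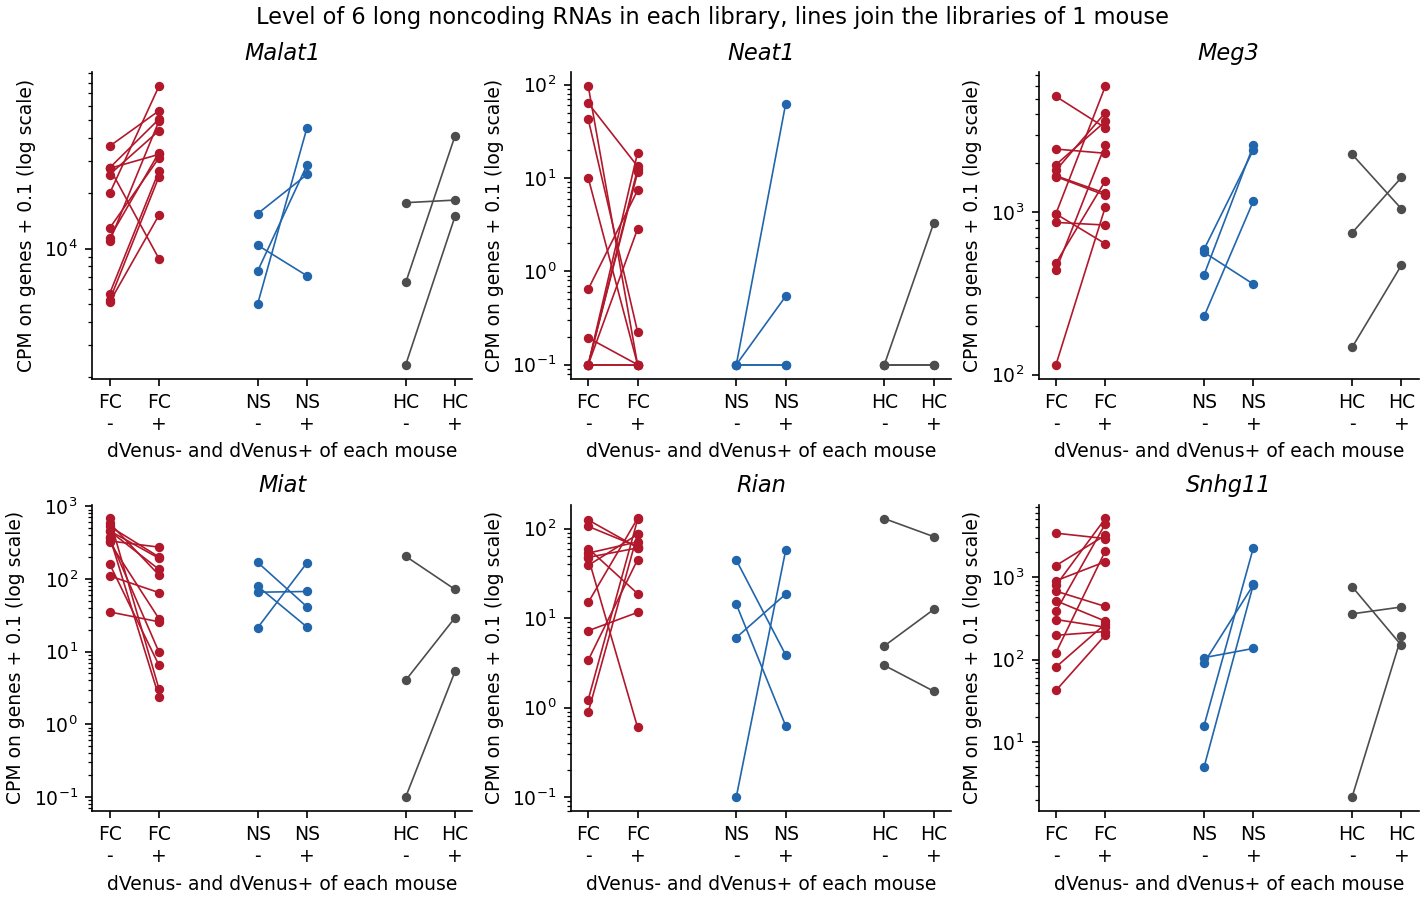
Level of each of the 6 genes in CPM plus 0.1 on a log axis, in dVenus- (-) and dVenus+ (+) libraries of FC, NS and HC mice, with a line for each mouse. The FC lines fall for Miat in 12 of 12 mice and rise for Malat1 in 11 of 12, both by CPM. On the TMM scale 11 of 12 fall for Miat.

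**Figure D2:**
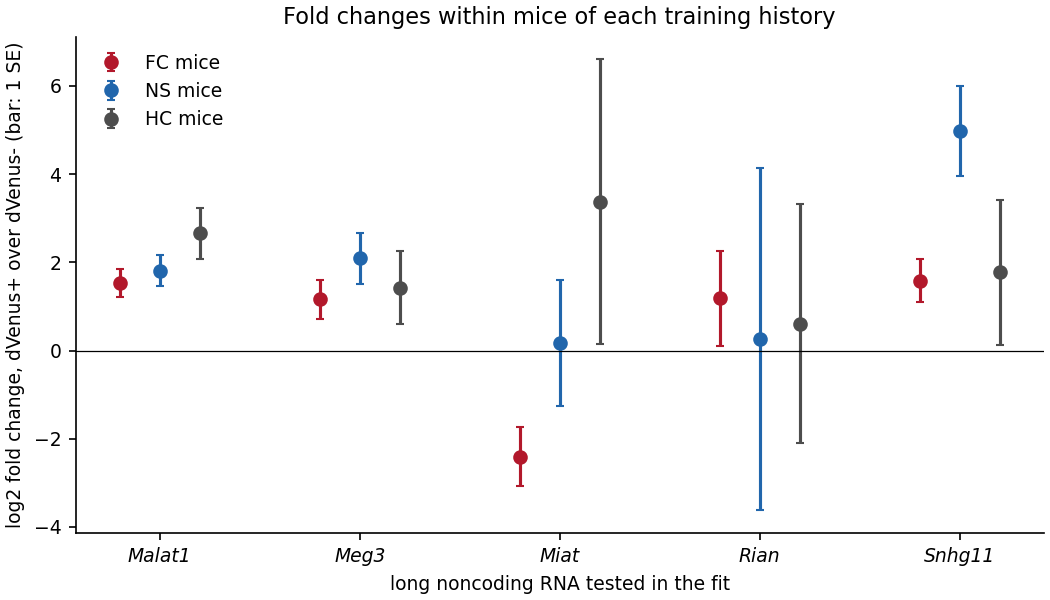
Log2 fold change of dVenus+ over dVenus- libraries in the edgeR fit for the 5 genes tested, with 1 SE, in FC (12 mice), NS (4 mice) and HC mice (3 mice). Malat1 lies at 1.53, 1.81 and 2.66, and Miat at -2.41, 0.17 and 3.38.

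edgeR called 137 of 9709 genes in FC mice (1.41%), of which 56 rose and 81 fell in dVenus+ cells. A call needed a Benjamini-Hochberg adjusted p under 0.05 and an absolute log2 fold change over 1. Of the 5 genes tested here it called 1, Malat1. Since the members were selected on this contrast, nothing is read from that count. The same holds for the members named below for other methods and for fits on fewer mice. DESeq2 called 1647 genes, among them Malat1, Meg3, Miat and Snhg11, and the newer quasi-likelihood method of edgeR 422, with Miat and Snhg11 beside Malat1. Leaving out 1 mouse at a time gave 56 to 118 genes, with 66, 56, 90 and 79 without mice 1, 3, 6 and 12, and Malat1 was among them each time, joined by Miat without mouse 7. In the batch of 6 mice alone edgeR called 0 of 10340 genes, Malat1 not among them, and in the batch of 4 alone 3 of 9199, among them Malat1 and Snhg11.

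In NS mice edgeR called 0 of 8187 genes (0%), with 384 at an unadjusted p under 0.05, DESeq2 666, Snhg11 among them, and the newer method 4, with Malat1 and Snhg11. Without NS mouse 18, 19 or 21 edgeR called 5, 12 and 10 genes, with Snhg11 in each, Malat1 in the last 2 and Meg3 in the last. The members were selected on the NS and HC contrasts too, so nothing is read from which of them passed in either. In HC mice edgeR called 2 of 7588 (0.0264%), Lars2 and Rn45s, named here after their values were seen, and 0 of the 5 members, with 297 at an unadjusted p under 0.05, DESeq2 629, none of them a member, and the newer method 0. Without HC mouse 15 or 17 it called 3, Malat1 among them. Without HC mouse 16 it called 2 others, so Lars2 and Rn45s rest on that mouse, and neither was called by DESeq2 or the newer method. Their log2 fold changes were 3.04 ± 0.52 and 2.57 ± 0.4 (SE), at average log2 CPM of 16.5 and 19.2 in the HC fit. Rn45s thus held a large part of the reads on genes there. The part of these 2 genes in the members' CPM was not tested.

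The training histories were compared as well. Whether the dVenus+ effect differed between histories was tested for all genes in 1 edgeR fit of all libraries over 14075 genes, where all 6 members were present. The members were chosen on the effects that go into these differences, so their own values are a description, and nothing is read from which of them passed. Between FC and NS mice 0 genes passed the adjusted threshold in edgeR (0%), with 763 at an unadjusted p under 0.05, 1274 passing in DESeq2, Neat1 and Snhg11 among them, and 0 in the newer method. The Snhg11 effect was lower in FC than in NS mice by a log2 difference of -3.45 ± 1.4 (SE). Over all genes the median of this difference was -0.69, and the other members ran from -4.46 ± 3.43 (Neat1) to 0.9 ± 2.87 (Rian). Neat1 was at 0 in every NS and HC dVenus- library, and of the NS dVenus+ libraries only that of mouse 18 held 10 counts or more. Its differences here and below thus rest on few libraries and on values at the floor. Between FC and HC mice 0 genes passed in edgeR (0%), with 892 at an unadjusted p under 0.05, 1678 in DESeq2, Neat1 and Miat among them, and 0 in the newer method. The Miat effect was lower in FC than in HC mice by -5.76 ± 1.97 (SE), and FC mice differ from HC mice in batch too. Here the median over all genes was -0.87, and the other members ran from -4.22 ± 4.2 (Neat1) to 0.4 ± 2.39 (Rian). Between NS and HC mice, which share a batch, edgeR passed 1 gene (0.0071%), with 688 at an unadjusted p under 0.05, 1457 in DESeq2 and 0 in the newer method. It was Gcn1l1, named after its values were seen, and none of these tools passed a member. Miat and Snhg11 gave -3.15 ± 2.23 and 3.09 ± 2.13 (SE) between NS and HC mice.

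Levels of NS against HC mice, which share a batch, were tested apart in dVenus+ and in dVenus- libraries. In dVenus+ libraries edgeR called 0 of 8706 genes (0%), with 300 at an unadjusted p under 0.05, DESeq2 110 and the newer method 0. The 5 members tested ran from -0.66 (Rian) to 1.25 (Snhg11) on the log2 scale, and none passed. In dVenus- libraries edgeR called 0 of 8547 genes (0%), with 280 at an unadjusted p under 0.05, DESeq2 144 and the newer method 0. The 5 members ran from -2.08 (Snhg11) to 1.07 (Miat), and the sign for Malat1, Meg3 and Rian changed when 1 mouse was left out, in one or both cell types.

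The share of uniquely aligned reads that fell outside genes was in view when the members were chosen, so it and its relation to their levels are also a description, without a test. In FC mice it ran from 23.5% to 59.7% in dVenus+ libraries, with a median of 45.4%, and its dVenus- range was 19.1% to 58.6%, with a median of 47.8%. These groups overlapped almost fully, 7 of 12 mice were higher in dVenus+, and the mean difference was -1.87 points (SD 12.3, n = 12 mice). Its sign changed to 0.574 points without FC mouse 14, and batches differed in direction, at -10.4 points in the batch of 2 mice, 6.18 in the batch of 4 and -4.4 in the batch of 6. In NS mice 18 to 21 the share was 44.3%, 35.7%, 42.9% and 20% in dVenus+ and 17.8%, 20%, 16.4% and 30.8% in dVenus- libraries. The first 3 mice were higher in dVenus+ and mouse 21 lower, with a mean difference of 14.4 points (SD 17.6, n = 4 mice). In HC mice 15 to 17 it was 44.9%, 31.1% and 29.2% in dVenus+ and 26.1%, 17.1% and 34.9% in dVenus- libraries. Mice 15 and 16 were higher and mouse 17 lower, with a mean difference of 9.06 points (SD 13, n = 3 mice).

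**Figure D3:**
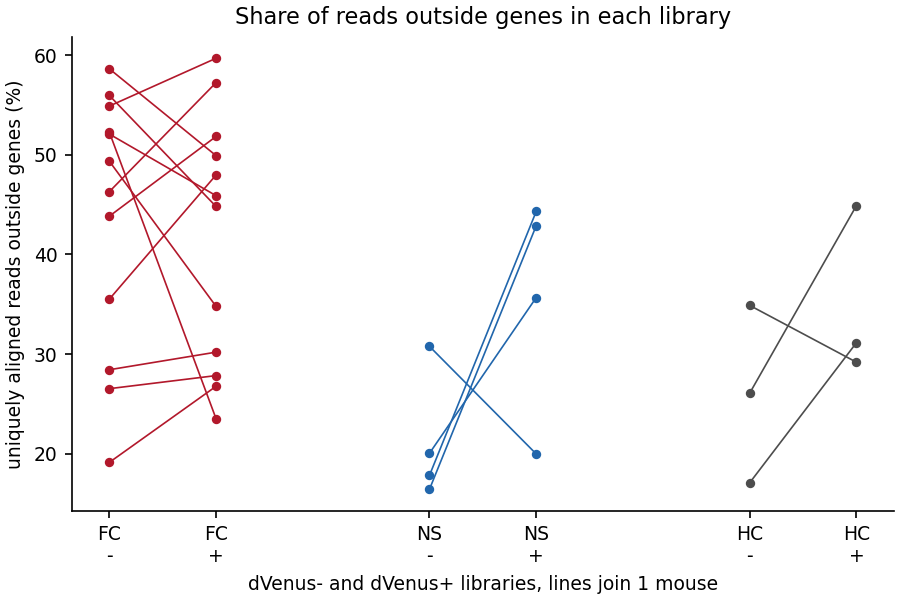
Percent of uniquely aligned reads outside genes in dVenus- (-) and dVenus+ (+) libraries of FC, NS and HC mice, with a line for each mouse. It was higher in dVenus+ in 7 of 12 FC, 3 of 4 NS and 2 of 3 HC mice.

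The level of each member was related to this share in 4 sets, which gave 24 relations: within-mouse differences of FC mice, within-mouse differences of NS and HC mice, FC dVenus+ libraries and FC dVenus- libraries. Pearson's r was positive in 23 of 24. In the 12 FC dVenus- libraries Malat1 gave r 0.862 and a Spearman's rho of 0.748, and r was 0.774 without the 2 libraries farthest from the median share and 0.786 within the batch of 6 mice. Meg3 gave r 0.769 and rho 0.643 there. Without the 2 farthest libraries its r was 0.488, and 0.468 within the batch of 6, so this relation leans on those libraries. Miat gave r 0.745 and rho 0.566 in the same 12 libraries, with r 0.768 without the 2 farthest and 0.872 within the batch of 6. Across within-mouse differences, however, Miat gave r 0.221 in the 12 FC mice and -0.107 in the 7 NS and HC mice, the negative one of the 24.

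In the 12 FC dVenus+ libraries Snhg11 gave r 0.684 and rho 0.706, with r 0.744 without the 2 farthest libraries and 0.846 within the batch of 6. Elsewhere the size of r depended on the points used. Its r in FC dVenus- libraries was 0.622, and 0.207 without the 2 farthest libraries and 0.314 within the batch of 6. Its r across within-mouse differences of FC mice was 0.413, with 0.53 without the 2 farthest mice and 0.00539 within the batch of 6. For NS and HC mice its r across these differences was 0.723, and 0.411 without the 2 farthest mice. Across within-mouse differences of 12 FC mice Malat1 gave r 0.528 and rho 0.517, with r 0.431 without the 2 farthest mice and 0.479 within the batch of 6. Across those of the 7 NS and HC mice Malat1 gave r 0.568 and rho 0.5, and r fell to -0.552 without mice 17 and 21, so that sign rests on those mice. The share and CPM have the reads on genes in common. Levels per uniquely aligned read, taken without TMM, have the total of uniquely aligned reads in common with the share instead. With these levels r in FC dVenus- libraries was 0.892 for Malat1, 0.648 for Meg3 and 0.698 for Miat. In FC dVenus+ libraries it was 0.68 for Malat1 on that scale, against 0.295 with TMM log2 CPM. The size of r thus depends on the scale there, and these scales differ in TMM as well as in the total used.

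With the share as a covariate in the fits, Malat1 gave 1.65 ± 0.27 in FC mice (SE, n = 12 mice) and 1.46 ± 0.34 in NS mice (SE, n = 4 mice), against 1.53 and 1.81 without it. In HC mice it gave 1.29 ± 0.24 in place of 2.66 (SE, n = 3 mice). Meg3 in HC mice fell from 1.42 to 0.13 ± 0.73, and Snhg11 there turned from 1.77 to -0.15 ± 1.88, in a fit with 1 residual degree of freedom. In NS mice Snhg11 fell from 4.98 to 3.03 ± 0.94. The HC values of these 3 genes thus changed when the share entered the fit, with Malat1 still positive. The share was higher in dVenus+ in 2 of 3 HC mice, so this fit can hardly separate it from cell type. The NS fit with the share had few residual degrees of freedom too.

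**Figure D4:**
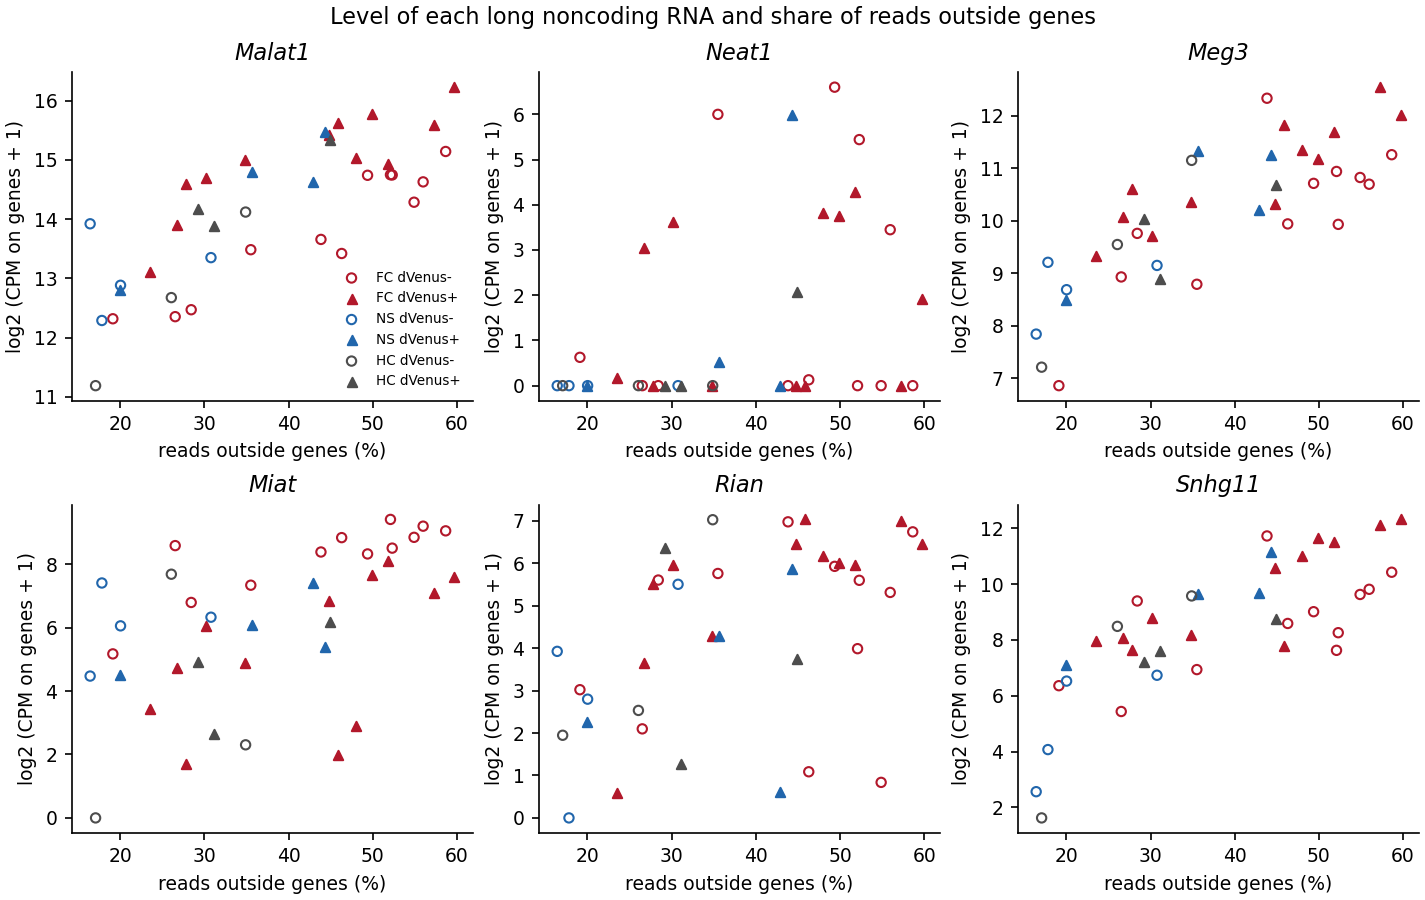
Level of each gene as log2 of CPM plus 1 against the percent of uniquely aligned reads outside genes, with open circles for dVenus- and filled triangles for dVenus+ libraries. In FC dVenus- libraries r with TMM log2 CPM was 0.862 for Malat1, 0.769 for Meg3 and 0.745 for Miat.

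The members differed among themselves in level. Per kb of exon Malat1 was the highest of the 6 in 38 of 38 libraries, at a median of 3196 CPM per kb, and Neat1 the lowest in 36. Meg3 (67.5 CPM per kb) and Snhg11 (43.6 CPM per kb) changed places between libraries, with Meg3 above in 23 of 38. Miat (10.2 CPM per kb) lay below Snhg11 in 31 of 38 libraries and above Rian (2.28 CPM per kb) in 32 of 38. Across within-mouse differences of 19 mice, Meg3 was more alike Snhg11 (r 0.702) and Malat1 (r 0.693) than its neighbour Rian (r 0.274), as a description. These 19 mice pool histories of different batches. In the 12 FC mice the r were 0.846, 0.728 and 0.488 in that order, and in the 7 NS and HC mice 0.694, 0.569 and -0.14. Over all 19 mice the genes most alike, of 8884, were Mei4, Fam198b and Kdm5a for Malat1 (r 0.859, 0.838 and 0.834). For Meg3 they were BC033916, Cenpf and Fam83a (r 0.869, 0.868 and 0.806). For Miat they were Gm3893, Ripply3 and Alox12, for Rian Brwd3, Calu and Tsc22d2, and for Snhg11 Vmn1r65, Gimap1 and Uba1y. Malat1, Meg3 and Miat each overlap in exon an antisense gene that the deposited gene set lacks, and since the strand setting is not stated, reads of these cannot be told apart.

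Among 47 other long noncoding RNAs, 31 are in the files and 26 were tested in FC mice. edgeR called 1 of these, Mir22hg (log2 fold change 3.63 ± 0.87, adjusted p 0.0421 after Benjamini-Hochberg), beside 1.41% over all genes, and 10 of 26 had a positive log2 fold change, with a median of -0.26 against -0.21 for all 9709 genes. Their summed level was higher in dVenus+ in 9 of 12 FC mice, 2 of 4 NS and 2 of 3 HC mice, with medians of 4708 CPM in FC dVenus+ and 4082 CPM in FC dVenus- libraries. Kcnq1ot1, the most abundant, gave 0.81 ± 0.31. In NS mice 14 of 20 were positive, with a median of 1.22, and in HC mice 13 of 19, with a median of 1.65. Whether the 6 members differ from these other long noncoding RNAs was not tested.

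Proteins of the same nuclear bodies and partners were counted as well. In FC mice edgeR called 0 of 15 paraspeckle proteins, 0 of 14 nuclear speckle proteins, 0 of 3 RNA-binding partners of Miat, 0 of 10 transcripts with detained introns, 0 of 3 genes of the Dlk1-Dio3 region, 0 of 76 ribosomal protein transcripts and 0 of 71 nuclear-encoded respiratory chain transcripts. Over all 9709 genes edgeR called 1.41%, with 1238 at an unadjusted p under 0.05, so lists of this size may hold no call by that rate alone and nothing is read from the zeros. The most abundant were Hnrnpk (0.39), Son (0.31), Qk (0.34), Ogt (0.52), Begain (-1.38), Rpl4 (0.01) and Atp5b (-0.72), each as log2 fold change in FC mice. Their medians were -0.08, 0.29, 0.02, 0.01, 3.83, 0.2 and -0.43 in that order of lists. edgeR called none of the genes of these lists in NS or HC mice, where it called 0 and 2 of all genes. By summed CPM the paraspeckle, nuclear speckle, Miat partner and detained intron lists were lower in dVenus+ in 3 of 3 HC mice each. Their median log2 fold changes in the fit were -0.76, 0.38, -0.15 and 0.64 there. In NS mice they were lower by summed CPM in 2, 3, 3 and 1 of 4 mice, and their medians in the fit were 1.29, 0.77, 0.31 and 1.16. In FC mice they were lower by summed CPM in 8, 5, 8 and 7 of 12. The direction of some of these lists thus depends on the measure, as for nuclear speckle proteins in NS and HC mice. The summed level of ribosomal protein transcripts was lower in dVenus+ in 4 of 4 NS and 3 of 3 HC mice, against 6 of 12 FC mice, with a median log2 fold change of -0.53 in NS and -0.12 in HC mice, where 34 of 75 were positive. That of respiratory chain transcripts was lower in 4 of 4 NS, 3 of 3 HC and 9 of 12 FC mice, with a median of -0.97 in NS and -0.67 in HC mice. The median of all genes was 0.20 in NS and 0.11 in HC mice. The part of these transcripts in the members' CPM was not tested.

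Markers of cell types were summed in each library as well. The summed level of 9 granule cell markers was lower in dVenus+ in all 12 FC, 4 NS and 3 HC mice, from 29.2 to 1934 CPM in FC dVenus+ libraries with a median of 501.5, while FC dVenus- libraries held between 886 and 4079 CPM, with a median of 1530. edgeR called Calb1 lower in FC mice (-3.14 ± 0.58, adjusted p 0.01), and C1ql2, the most abundant, gave -2.13 ± 0.65. All 9 had negative log2 fold changes, with a median of -1.65. Tdo2 was at 0 in every NS dVenus+ and every HC dVenus- library. The summed level of 10 microglia markers was higher in dVenus+ in 10 of 12 FC, 3 of 4 NS and 2 of 3 HC mice, from 54.9 to 2153 CPM in FC dVenus+ libraries with a median of 264, while FC dVenus- libraries held between 1.9 and 976 CPM, with a median of 37.8. edgeR called Tyrobp higher (8.13 ± 1.97, adjusted p 0.0464), and Ctss, the most abundant, gave 5.67 ± 2.31. With the share of reads outside genes as a covariate edgeR called 0 of the 8 in FC mice, against 125 of all 9709 genes. The Tyrobp call was thus not kept in that fit, and nothing more is read from the 0. All 8 tested were positive in FC mice. The part of these markers in the members' levels was not tested.

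**Figure D5:**
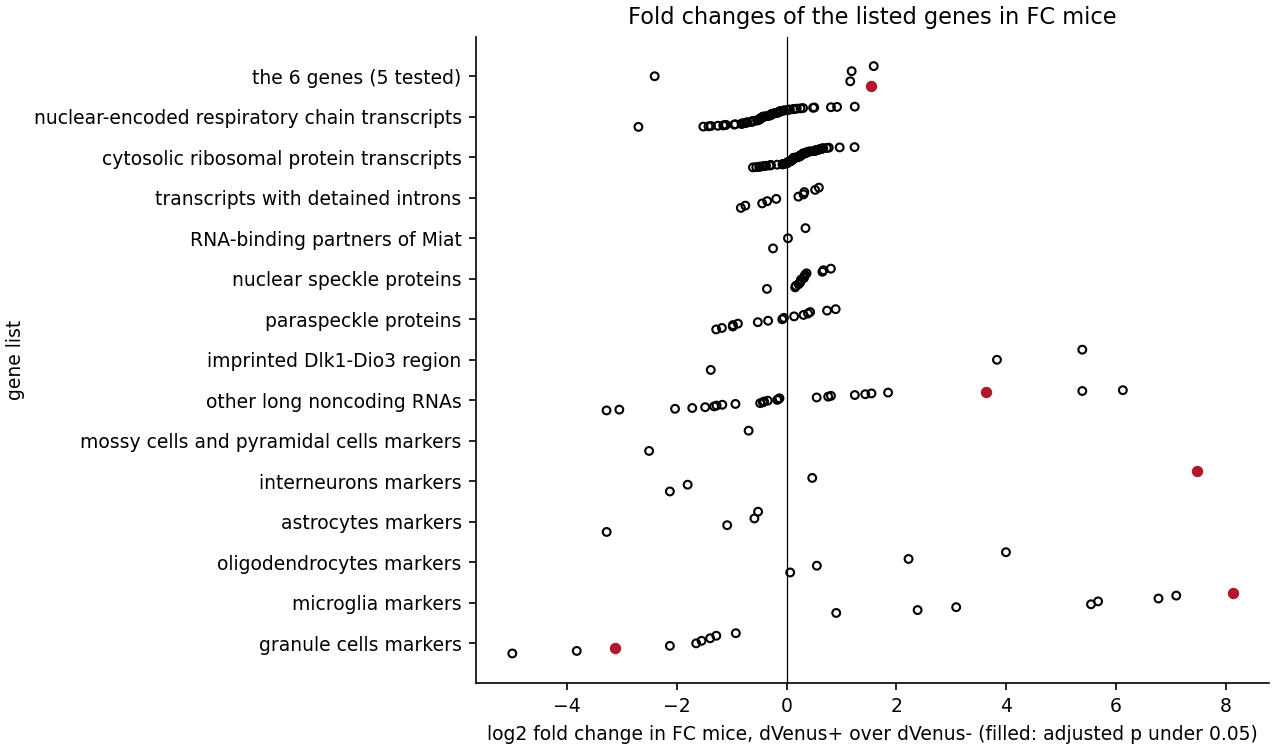
Log2 fold change of each tested gene in FC mice, dVenus+ over dVenus-, by list, with called genes filled. The 9 granule cell markers lie below 0 and the 8 microglia markers above it.

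The other marker lists held 1 call in FC mice, and the summed levels are a description. The summed level of astrocyte markers was lower in dVenus+ in 11 of 12 FC mice, with medians of 292 CPM in dVenus+ and 643 CPM in dVenus- libraries, and all 4 tested had negative log2 fold changes. It was lower in 2 of 4 NS and 0 of 3 HC mice. That of mossy and pyramidal cell markers was lower in 10 of 12 FC, 4 of 4 NS and 3 of 3 HC mice, and that of oligodendrocyte markers in 8 of 12 FC mice, although all 4 tested had positive log2 fold changes. edgeR called 0 of 4 astrocyte, 0 of 2 mossy and pyramidal cell and 0 of 4 oligodendrocyte markers in FC mice, at the same rate over all genes as above. Of 4 interneuron markers it called Npy (7.48 ± 1.68, adjusted p 0.0326), while Gad1 gave -2.13, Pvalb -1.80 and Gad2 0.47, and the summed level of that list was higher in dVenus+ in 5 of 12 FC mice. The most abundant of these lists were Gad1, Mbp, Slc1a2 and Cpne4. No oligodendrocyte precursor marker (2 genes, Cspg4 the most abundant) and no endothelial marker (3 genes, Cldn5 the most abundant) passed the count filter in FC mice.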

How the data were processed

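The deposited files hold counts. According to the submitters, TopHat2 2.0.13 placed the single reads on mm10, and HTSeq 0.6.0 gave the uniquely aligned reads of each gene on NCBI transcripts, with no normalization. The strand setting is not stated. Each of the 38 libraries has 23420 genes and 5 entries that name no gene, one of them for reads outside genes. A deposited table of all libraries holds fewer genes and was not used. Groups and mice were taken from the sample titles, with which the descriptions of 10 NS and HC libraries do not agree. The members and the gene lists were chosen with earlier results of these data known.

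Each history was fitted on its own in edgeR 4.0.16 (R 4.3.3) with TMM, estimateDisp, glmQLFit and glmQLFTest at the defaults of this version and with mouse as block. The count filter asked for 10 counts or more in 12 (FC), 4 (NS) or 3 (HC) libraries. Interactions were fitted in 1 fit of all libraries, and NS against HC without a block, where the filter asked for 3 libraries. A gene was called at a Benjamini-Hochberg adjusted p under 0.05 and an absolute log2 fold change over 1, and interactions passed by the p alone. DESeq2 1.42.0 and other settings served as alternatives. Correlations use TMM log2 CPM with a prior count of 2. Permutation tests of these and of the share were planned and run, but their p are not given, since the choice of the members used the same values. All tests are two-sided. The share of reads outside genes is a percent of reads on genes, outside genes and ambiguous. The newer quasi-likelihood method of edgeR was added after the data were seen. The fits were tested on simulated data. Named from each list were the genes called in FC mice, at most 4 in each direction, and the most abundant gene, and for 5 of the members the 3 genes with the highest r. Gad2 and Pvalb, the other interneuron markers tested, and Tdo2, at 0 in whole groups of libraries, were named as well. The 2 libraries of a mouse form a pair since they come from the same mouse. After group means were taken off, their correlation over 8885 genes had a median of 0.0327, from -0.084 to 0.276, with 3 of 19 over 0.1. Sequences are from RefSeq (GRCm38.p6) and GENCODE vM21, read with Python 3.11.15.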

Additional observations from a re-analysis of the deposited data

Results flagged for a closer look

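Of 21 groups of 4 values checked in NS mice for a sample far from the others, 1 had one. Neat1 in NS dVenus+ libraries had a highest value of 61.9 CPM in mouse 18, whose gap to the next library was 0.993 of the whole range, over the critical value for 4 samples. Chance gives about 1 in 20 such groups.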

How the results depend on the processing

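Of 660 values recomputed under an alternative, 556 kept their direction and their side of the threshold or moved by less than the spread between mice. In FC mice, with 137 genes called, DESeq2 called 1647 and the newer edgeR method 422, the batch of 6 mice alone 0 and the batch of 4 alone 3. Leaving out 1 mouse gave 56 to 118, and fell below the main count by over 1.5 times without mouse 1 (66), 3 (56), 6 (90) and 12 (79). In NS mice, with 0 called, DESeq2's size factors gave 1, DESeq2 666, the newer method 4 and no count filter 13, and leaving out 1 mouse 0 to 12 (mouse 18 gave 5, mouse 19 gave 12 and mouse 21 gave 10). In HC mice, with 2 called, the size factors gave 0, DESeq2 629, the newer method 0, no filter 5, the share covariate 0 and a fit without the mouse block 0, and leaving out 1 mouse 2 to 3, with 0 of the 2 genes kept without mouse 16. The fit without the mouse block gave 126 in FC and 0 in NS mice, and Malat1 1.40 in FC mice. Interactions passing in DESeq2 were 1274 between FC and NS, 1678 between FC and HC and 1457 between NS and HC mice, the last 0 by the newer method. NS against HC gave 110 and 144 in DESeq2 and 0 to 0 in edgeR without 1 mouse.

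For the share of reads outside genes, the planned count of relations past the threshold, from which nothing is read, was 3 of 24, against 7 on the scale of all uniquely aligned reads, 0 without the 2 farthest points and 0 in the batch of 6. The sign of r turned for Meg3 in FC differences in that batch (-0.0724), and without the 2 farthest points for Malat1 (-0.552) and Meg3 (-0.263) in NS and HC mice and for Neat1 (-0.0724) and Rian (-0.185) in FC dVenus- libraries. The share difference without 1 mouse ran from -3.17 to 0.574 in FC, 10.4 to 22.9 in NS and 4.18 to 16.4 in HC mice, and turned sign without FC mouse 14. For NS against HC mice, where 1 mouse was left out, the log2 fold change in dVenus+ libraries ran from -0.33 (without NS mouse 19) to 0.78 for Meg3 and from -1.37 to 0.98 (without HC mouse 17) for Rian. In dVenus- libraries it ran from -0.00565 (without HC mouse 15) to 0.99 for Malat1, from -1.09 to 0.23 for Meg3 and from -2.48 to 1.51 for Rian (both without HC mouse 17), so these signs turned. DESeq2's size factors moved the median of all genes in NS against HC dVenus- libraries from 0.14 to -0.01. The cause was not tested.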
